A study of Mus musculus with 36 samples.

Results

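Kruppel-like factors are transcription factors with zinc fingers that bind GC-rich and CACCC sequences, and 7 of their genes are described here: Klf2, Klf3, Klf4, Klf5, Klf6, Klf9 and Klf10. They were taken by name from a table of read counts for 49671 genes, and all 7 were among the 17702 genes that passed the filter on low counts. Klf2, Klf4 and Klf5 are counted as the naive factors, because they sustain the naive state of mouse embryonic stem cells (mESCs), and the other 4 were set against them. The cells were labelled as mESCs of strain and genotype 129m wt, without further genetic change, and grown on soft or stiff StemBond hydrogels or on tissue culture plastic. StemBond hydrogels are polyacrylamide gels to which matrix protein is covalently tethered.

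All media contained serum, with or without LIF and with or without PD03. Both hydrogels were sampled at 24 h with LIF alone added to serum, and at 48 h in all 4 media, that is with neither agent, with LIF, with PD03 and with both (serum, serum + LIF, serum + PD03, serum + LIF + PD03). Plastic was sampled at 48 h in serum + LIF. RNA of 36 libraries was sequenced, 6 for soft hydrogels in serum + PD03 and 3 for each of the other 10 groups. The labels do not say whether libraries of a group came from separate cultures, so p-values measure the spread between these libraries, which may be technical. Total counts ranged from 10405696 to 26635239 per library, and a member held between 663 and 18192 counts in any library. Levels are given as CPM, the count of a gene relative to the total of its library, with library sizes scaled by TMM, and a gene was called where its edgeR quasi-likelihood p, adjusted by Benjamini-Hochberg over all 17702 genes, was under 0.05. Overlap between the libraries of groups is given only as a description of their values. The share of all genes tested without overlap was not counted. At 24 h both substrates were sequenced in pool 1, whereas at 48 h stiff libraries came from pool 2 and soft libraries from pool 3, except for 1 of 3 stiff libraries in serum + LIF (pool 1) and 2 of 6 soft libraries in serum + PD03 (pool 2). The count table does not show which columns these exceptions were. Markers of embryonic stem cells were present in every library, with a summed level of Pou5f1, Sox2, Nanog, Esrrb and Zfp42 between 1660 and 3020 CPM. In such bulk samples, fewer cells of a type and less RNA per cell cannot be told apart.

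In the naive network, LIF acts through STAT3, for which Klf4 is a known target. The protein of Klf2 is known as the factor that MEK and ERK signalling removes and that therefore links MEK inhibition to self-renewal. RNA and not protein was measured here, so that removal was not tested. Klf5 belongs to the same self-renewal circuit and is known for roles in the early embryo. PD03 inhibits MEK, the kinase that activates ERK. Of the others, Klf3 is best known as a repressor, Klf6 as a broadly expressed activator linked to growth control, Klf9 as a gene induced by steroid and thyroid hormones, and Klf10 as an early target of TGF-beta.

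The annotated genes lay on 7 different chromosomes of GRCm38. The 3 members with the largest fold between their highest and lowest group means were Klf2 (ENSMUSG00000055148, chr8:72319033-72321656), Klf4 (ENSMUSG00000003032, chr4:55527143-55532466) and Klf6 (ENSMUSG00000000078, chr13:5861482-5870394), and all 3 were higher with PD03. The promoter table of RefSeq (GRCm38.p6) matched 5 of the 7 members, Klf2, Klf3, Klf4, Klf6 and Klf9, whereas Klf5 and Klf10 are named only. For those 3 genes, the 250 bases before the annotated start site are shown 5′ to 3′ on the strand of the gene. Capitals mark matches on either strand to GGGCGG (a GC box, the kind of site that KLF and SP proteins bind), TGACG (the core of a CRE), CACGTG (an E-box) and an A/T-rich MEF2 site.
Klf2, chr8:72318812-72319061, plus strand: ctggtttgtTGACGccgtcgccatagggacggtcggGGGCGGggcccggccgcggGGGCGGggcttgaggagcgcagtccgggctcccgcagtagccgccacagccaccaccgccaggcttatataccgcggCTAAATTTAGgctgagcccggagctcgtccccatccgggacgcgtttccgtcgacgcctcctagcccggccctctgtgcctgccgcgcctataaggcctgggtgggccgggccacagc
Klf4, chr4:55532476-55532725, minus strand: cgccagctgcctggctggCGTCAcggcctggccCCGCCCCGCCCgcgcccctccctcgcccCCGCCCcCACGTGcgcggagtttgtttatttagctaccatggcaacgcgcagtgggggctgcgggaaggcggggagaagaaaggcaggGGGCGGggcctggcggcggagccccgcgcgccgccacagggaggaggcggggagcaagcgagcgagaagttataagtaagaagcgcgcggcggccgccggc
Klf6, chr13:5861239-5861488, plus strand: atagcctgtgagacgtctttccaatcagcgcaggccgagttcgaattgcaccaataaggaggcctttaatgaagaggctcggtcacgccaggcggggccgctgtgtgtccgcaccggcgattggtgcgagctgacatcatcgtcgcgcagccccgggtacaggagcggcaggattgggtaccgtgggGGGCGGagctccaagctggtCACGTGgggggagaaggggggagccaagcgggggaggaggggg
The GC box letters GGGCGG occurred 2 times before Klf2, 4 times before Klf4, with 2 of these matches overlapping by 1 base, and 1 time before Klf6. At least 1 such match was held by 35.7% of the 32841 RefSeq promoters of 300 bases. CACGTG stood before Klf4 and Klf6 and in 7.15% of all promoters, TGACG before Klf2 and Klf4 and in 20.8%, and the MEF2 site before Klf2 and in 3.19%. CACCC stood before Klf2 (not capitalised) and in 57.5% of all promoters. No match to TGANTCA (AP-1, 7.81% of all promoters), TTCNNNGAA (STAT, 8.3%), CCGGAA (ETS, 14.9%) or the CArG box of SRF (1.63%) was found in these 3 windows. Klf9 held TGANTCA and TTCNNNGAA. Over the whole promoter of 300 bases, G and C made up 69.3% for Klf2, 74.3% for Klf4, 76.7% for Klf3, 63% for Klf6 and 63.3% for Klf9. The median over all promoters was 52.7%. These matches are descriptions of letters and not of binding.

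Per length of annotated exons, Klf2 and Klf5 were the most abundant members, and the naive factors stood above the other 4. The mean level over all libraries was 138.4 CPM per kb for Klf2, 124.3 for Klf5 and 68.9 for Klf4, against 32.7 for Klf9, 23.6 for Klf6, 18.6 for Klf3 and 15.4 for Klf10. This order depends on the exon length used. Without it, Klf4 (210 CPM) and Klf3 (209.4 CPM) were nearly equal, with 3.05 and 11.24 kb of annotated exons. By mean CPM, all 7 were above at least 80.5% of the genes tested (Klf10), and Klf5 was above 98.9%. Levels of Klf2 spanned 3.32-fold between the lowest and highest group means, those of Klf4 2.48-fold, of Klf6 2.42-fold and of Klf5 1.94-fold. Klf10 spanned 1.24-fold, Klf9 1.18-fold and Klf3 1.17-fold. The members thus fell into 4 that varied over the groups and 3 that stayed nearly level.

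Ordered by group mean, Klf2 was lowest on plastic (124.4 ± 7.79 CPM, SD, n = 3) and highest on soft hydrogels in serum + LIF + PD03 (413.6 ± 44.3 CPM, n = 3). Its 4 groups with PD03 (means of 357.7 to 413.6 CPM) stood apart from the 7 without it (124.4 to 187.2 CPM), but neighbouring groups overlapped in 6 of 10 pairs, among them soft hydrogels in serum, in serum + LIF and after 24 h, at 187.2, 186.3 and 186.6 CPM. Klf4 was lowest on stiff hydrogels in serum (119.5 CPM) and highest on soft hydrogels in serum + LIF + PD03 (296 CPM), with overlap in 5 of 10 neighbouring pairs. Klf5 was lowest in the 4 groups with PD03, from 440.4 CPM on stiff hydrogels in serum + PD03 to 549.4 CPM on soft hydrogels in serum + LIF + PD03, and ran from 650.9 CPM on plastic to 854.3 CPM on soft hydrogels after 24 h without it. Its neighbours overlapped in 8 of 10 pairs. Klf6 ran from 66.4 CPM on soft hydrogels in serum to 160.6 CPM on stiff hydrogels in serum + LIF + PD03, with overlap in 4 of 10 pairs. Klf3 (194.2 to 226.4 CPM) and Klf10 (55.3 to 68.4 CPM) had overlapping libraries in 9 of 10 neighbouring pairs and Klf9 (143.9 to 169.9 CPM) in 10 of 10.

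**Figure D1:**
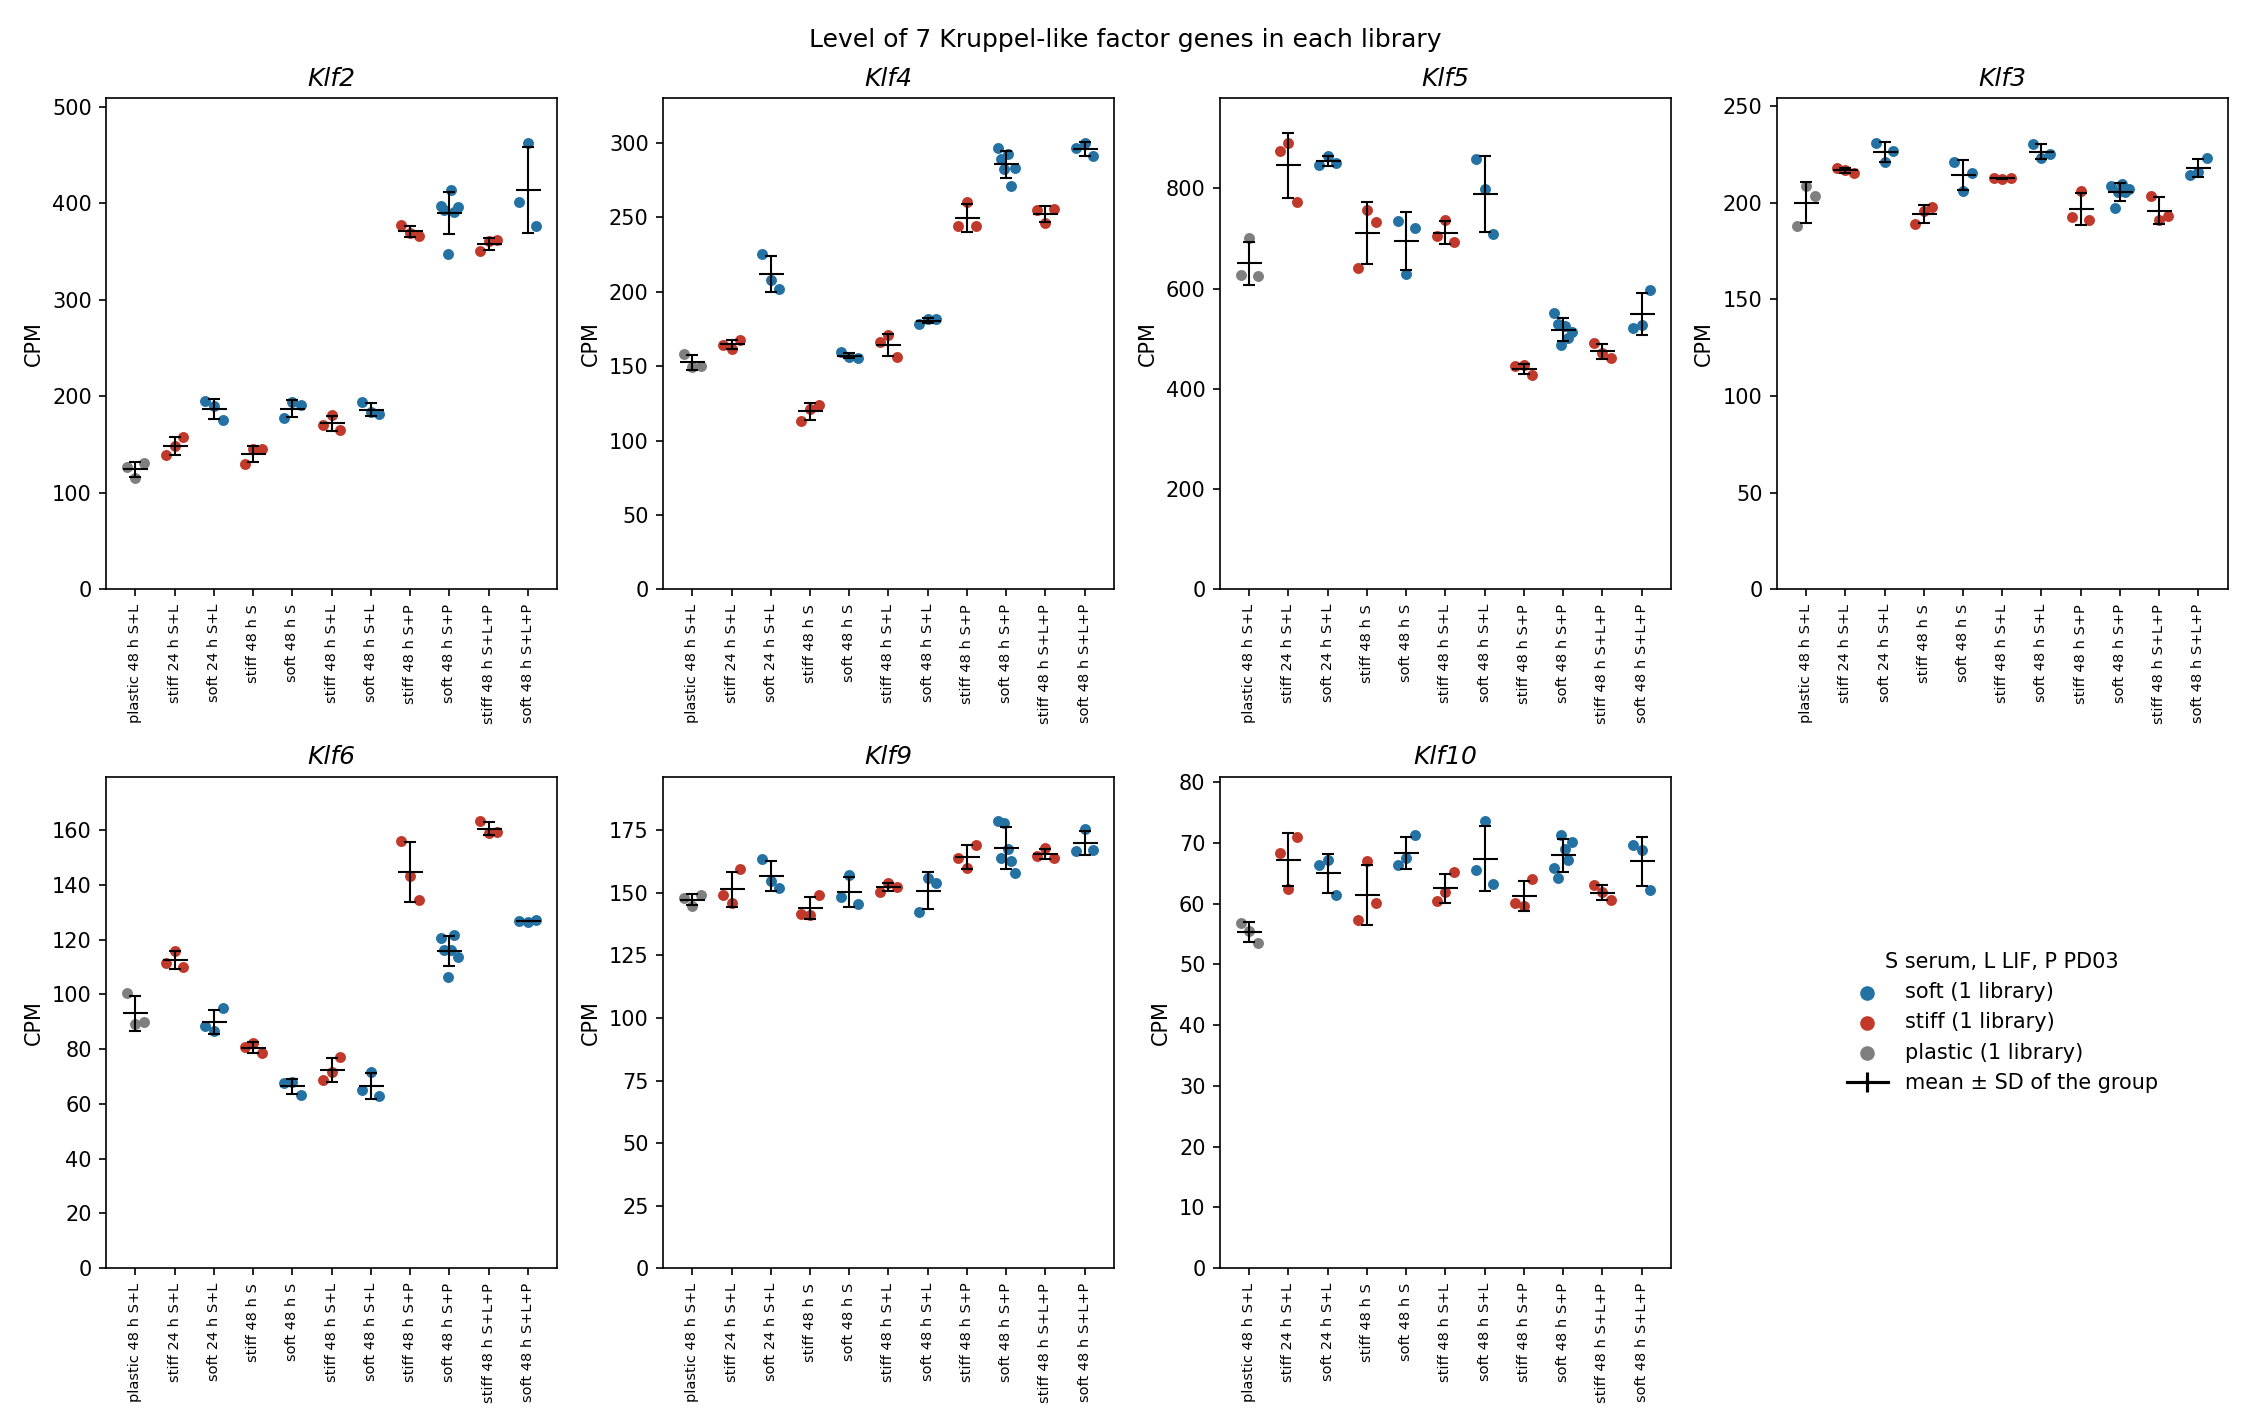
Level of each of the 7 genes in CPM (y axis, from 0) in every library (points) of the 11 groups (x axis), with black bars for the mean ± SD of a group. Klf2 in the 4 groups with PD03 sat between 347.8 and 462.7 CPM, above all groups without it, while Klf5 in the same groups sat at or below 597.9 CPM.

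MEK inhibition separated the members most clearly, and the naive factors did not move together. With PD03, Klf2 was 2.08 to 2.65 times as high, Klf4 1.54 to 2.09 times and Klf6 1.74 to 2.21 times, whereas Klf5 was 0.62 to 0.745 times as high. Klf9 was slightly higher, and Klf10 was not called. PD03 changed much of the transcriptome, so that a call on its own sets no gene apart: 57.5% of genes tested were called on soft hydrogels without LIF, 54.4% on soft with LIF, 55.8% on stiff without LIF and 56.2% on stiff with LIF. Of the members, 4 were higher and 1 lower in the first 3 of these comparisons, and 4 higher and 2 lower on stiff hydrogels with LIF. The median absolute log2 fold change over all genes tested was 0.39 to 0.44 in these comparisons. Klf2, Klf4, Klf5 and Klf6 exceeded it in all 4 comparisons, while Klf3, Klf9 and Klf10 stayed below.

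On stiff hydrogels without LIF, Klf2 measured 130.2, 145.3 and 144.9 CPM in serum and 377.4, 369.5 and 366.4 CPM in serum + PD03. The groups were far apart, with a log2 fold change of 1.41 (SE 0.061, edgeR adjusted p = 1.26e-25). Both groups came from pool 2. With LIF, the 3 stiff libraries measured 170.6, 180.2 and 164.9 CPM without PD03 and 350.3, 360.7 and 362.1 CPM with it, a log2 fold change of 1.06 (edgeR adjusted p = 7.12e-21). On soft hydrogels the log2 fold change of Klf2 was 1.06 without LIF (edgeR adjusted p = 6.24e-23) and 1.15 with LIF (2.83e-22), the latter within pool 3. At 48 h the lowest library with PD03 on soft hydrogels (347.8 CPM) was well above the highest without it (194.1 CPM).

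Klf4 on stiff hydrogels without LIF measured 113.4, 121.4 and 123.8 CPM in serum and 243.9, 260.1 and 244.3 CPM in serum + PD03, a log2 fold change of 1.06 (SE 0.047, edgeR adjusted p = 1.65e-25). With LIF the difference was 0.62 (9.5e-17), where libraries without PD03 already stood at 155.8 to 170.6 CPM. On soft hydrogels Klf4 was higher by 0.86 without LIF (2.95e-24) and by 0.71 with it (6.15e-19). No Klf4 library with PD03 was as low as any without it.

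Klf5 went the other way. It measured 641.3, 757.5 and 733.5 CPM on stiff hydrogels in serum and 444.9, 447.5 and 428.7 CPM in serum + PD03, without overlap (log2 fold change -0.69, SE 0.063, edgeR adjusted p = 1.45e-13). The log2 fold change was -0.58 on stiff hydrogels with LIF (2.21e-11), -0.42 on soft hydrogels without LIF (1.6e-09) and -0.52 on soft hydrogels with LIF (5.69e-10). Per length, Klf5 was 1.32 to 2.03 times as abundant as Klf2 in the 7 group means without PD03 and 0.421 to 0.477 times in the 4 with it. The share of Klf2 in the summed CPM per kb of the 7 genes went from 20.7% to 27.5% without PD03 to 41.1% to 43.1% with it, that of Klf5 from 36.3% to 41.7% to 18.1% to 20.1%, and that of Klf4 from 11.8% to 16.4% to 17.5% to 18.7%. These ratios and shares rest on the same contrast and were not tested again.

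**Figure D2:**
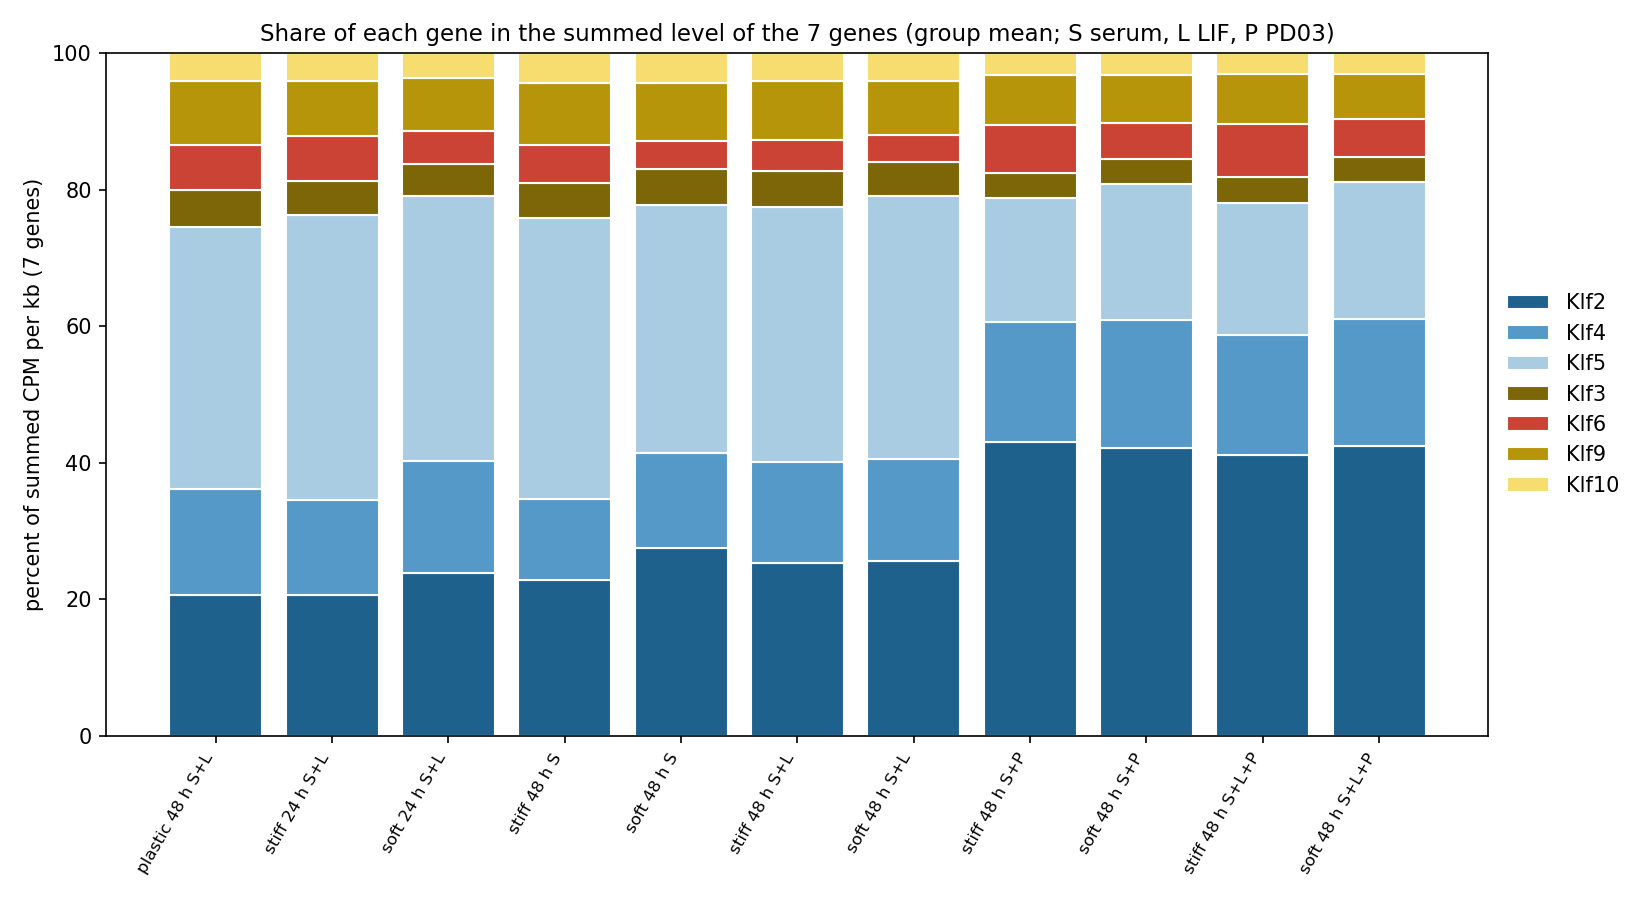
Share of each gene in the summed level of the 7 genes, in percent of CPM per kb of exon (y axis), as stacked group means for the 11 groups (x axis). Klf5 was the largest share in the groups without PD03 (36.3% to 41.7%) and Klf2 in the groups with PD03 (41.1% to 43.1%).

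Among the other members, Klf6 stood out. On stiff hydrogels with LIF it measured 68.6, 71.6 and 77.2 CPM without PD03 and 163.2, 159 and 159.4 CPM with it. The groups did not overlap, and the log2 fold change was 1.14 (SE 0.057, edgeR adjusted p = 3.17e-23). It was 0.84 on stiff hydrogels without LIF (3.34e-18), 0.80 on soft hydrogels without LIF (3.2e-19) and 0.93 on soft hydrogels with LIF (2.12e-19). Klf9 was called higher in each of the 4, by log2 fold changes of 0.16 (edgeR adjusted p = 0.000877) and 0.17 (0.00236) on soft and 0.19 (0.000686) and 0.12 (0.0299) on stiff hydrogels, without and with LIF in turn. With LIF its call was lost on soft hydrogels without library 1 in serum + LIF (0.12, adjusted p = 0.0589). On stiff hydrogels it was lost without library 1 (0.12, 0.0713) or 3 (0.13, 0.0527) in serum + LIF or library 2 in serum + LIF + PD03 (0.12, 0.0743). With the pool as a term, this last comparison of Klf9 was called in 16 of 45 assignments, whereas the other PD03 calls of the members were kept in all 45. Klf3 was called lower only on stiff hydrogels with LIF (-0.12, 0.0177), where leaving out any of 5 of the 6 libraries (all but library 1 with PD03) ended the call, at -0.11 to -0.09 and adjusted p of 0.0591 to 0.122. Klf10 had log2 fold changes of -0.019 to -0.0019 and, on stiff hydrogels with LIF, a 95% interval from -0.14 to 0.11.

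**Figure D3:**
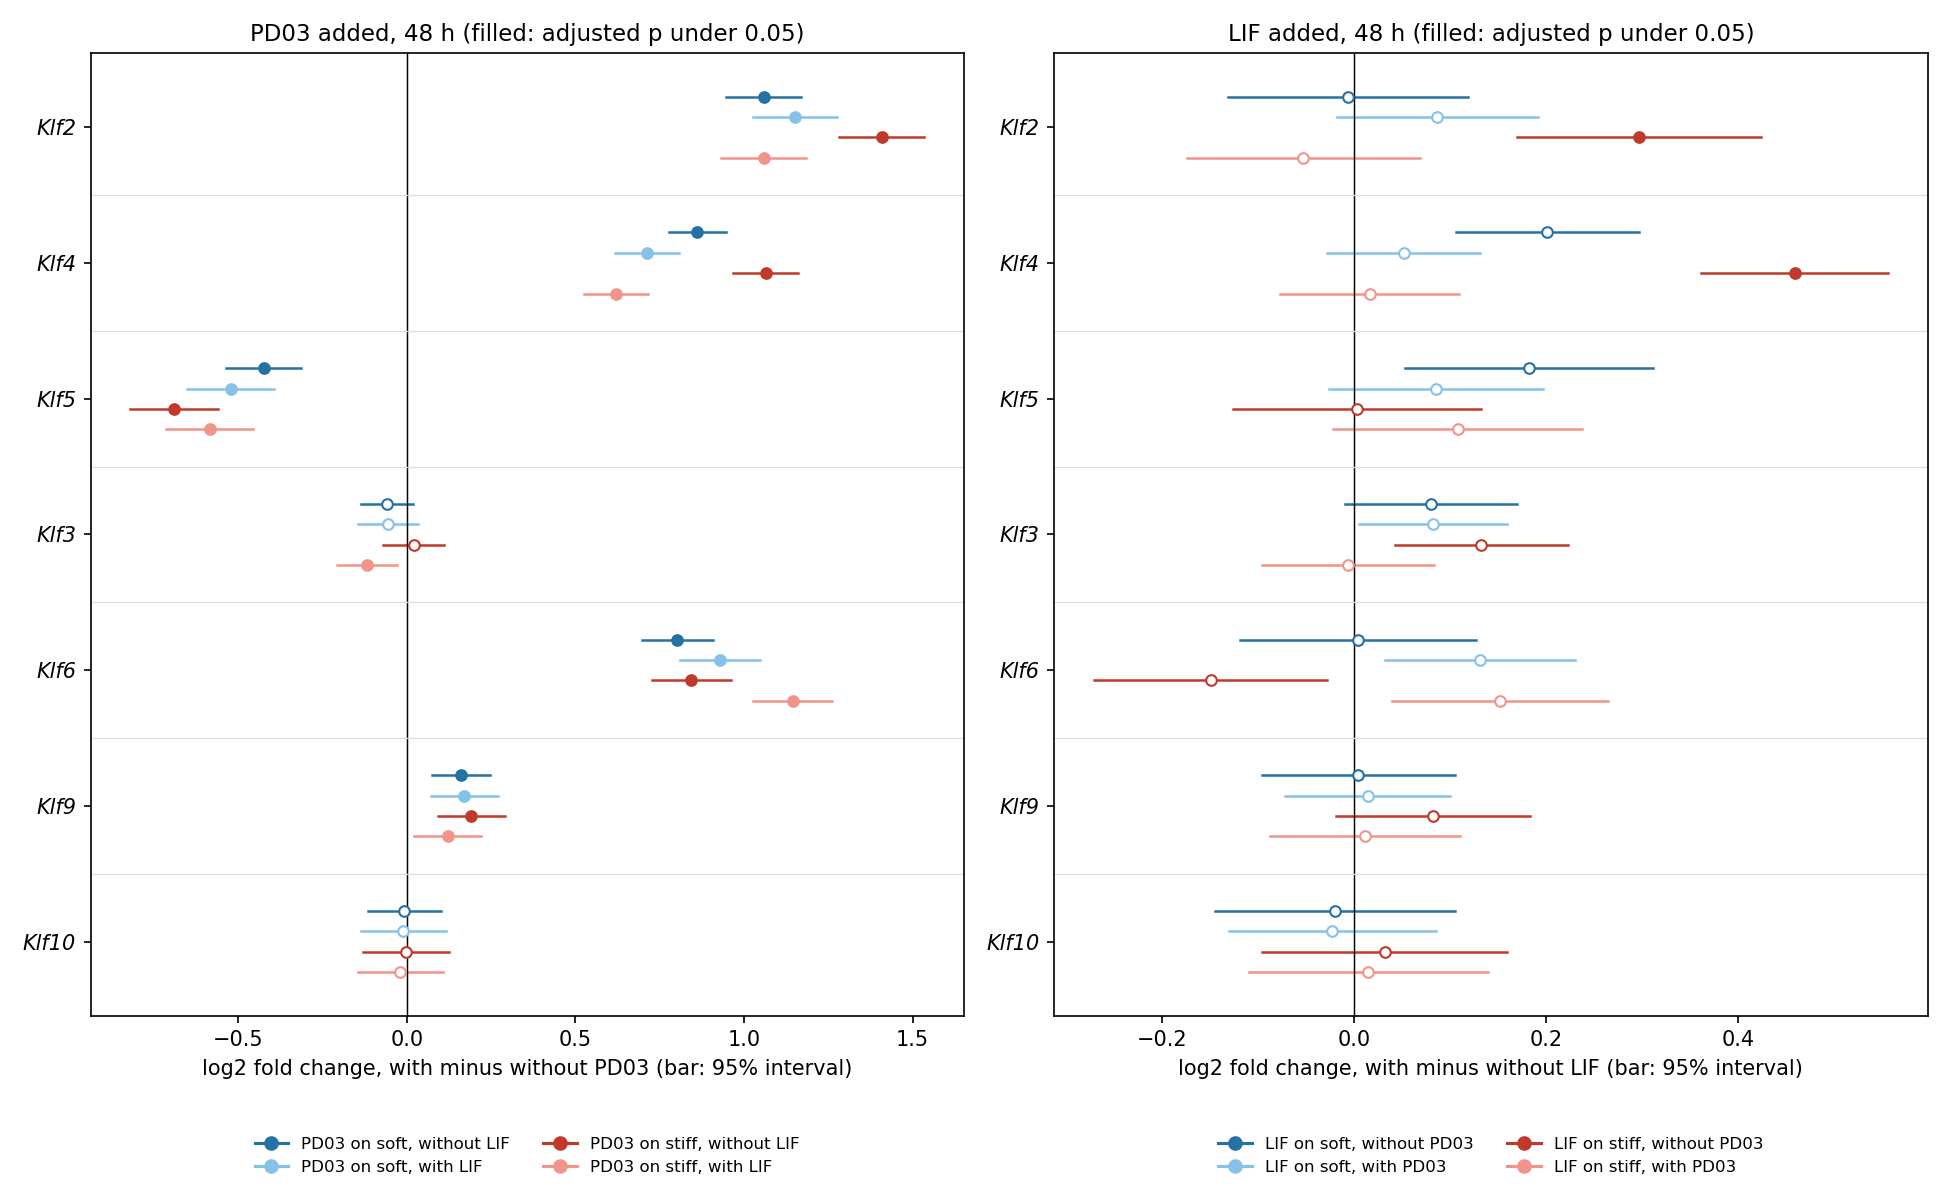
Log2 fold change (x axis) of each gene (y axis) on adding PD03 (left) or LIF (right) at 48 h, by substrate and by presence of the other agent, with bars for 95% intervals and filled points for edgeR adjusted p under 0.05. With PD03 the points of Klf2, Klf4 and Klf6 lay between 0.62 and 1.41 and those of Klf5 between -0.69 and -0.42, and with LIF the filled points were Klf2 (0.30) and Klf4 (0.46) on stiff hydrogels without PD03.

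Targets of the pathways around these genes were counted in the same PD03 comparisons. Of 10 ERK targets, 8 were lower and 1 higher in each of the 4 comparisons. Spry4, a feedback inhibitor of the pathway, changed by -6.77 and -7.48 on soft and by -7.56 and -7.82 on stiff hydrogels (log2, without and with LIF). Etv4, an ETS factor, changed by -5.22, -5.62, -5.64 and -6.27 in the same order. Of 8 partners in the naive network 7, 7, 8 and 7 were higher, with Nanog at 1.94, 1.84, 2.15 and 1.84. Of 7 SRF and YAP targets 7, 6, 6 and 7 were higher, with Acta2, a smooth muscle actin, at 2.81, 2.59, 2.58 and 3.72. Of 8 LIF and STAT3 targets 3, 2, 2 and 2 were higher and 4, 4, 4 and 6 lower.

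Beyond the 7 members, 16 of 19 further Klf and Sp genes passed the filter, and Klf14, Klf17 and Sp7 did not. With PD03, 5 of 8 further Klf genes were higher in each comparison and 2 or 3 were lower, and of 8 Sp genes 1 was higher and 3 were lower. The largest changes were those of Sp5, a Wnt target, at -5.00 and -5.14 on soft and -5.56 and -6.42 on stiff hydrogels without and with LIF, of Sp8, at -2.94, -2.33, -2.00 and -4.10, and of Klf12, a repressor, at -2.23, -2.64, -2.19 and -2.26. Klf12 averaged 8.65 CPM, Sp5 5.94 CPM and Sp8 1.19 CPM over all libraries, far below the members.

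LIF was tested on each substrate, with and without PD03. On stiff hydrogels without PD03, 1.41% of genes tested were called, and Klf2 and Klf4 were both higher. Klf4 measured 113.4, 121.4 and 123.8 CPM in serum and 166.1, 170.6 and 155.8 CPM in serum + LIF, without overlap (log2 fold change 0.46, SE 0.047, edgeR adjusted p = 2.87e-09). Klf2 measured 130.2, 145.3 and 144.9 CPM in serum and 170.6, 180.2 and 164.9 CPM in serum + LIF, again without overlap (0.30, SE 0.062, 0.00332), and its call was lost without library 2 in serum + LIF (0.25, 0.0825) or library 1 in serum (0.22, 0.104). With the pool as a term, Klf4 was called in 45 of 45 assignments and Klf2 in 36. The other 5 members were not called.

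On soft hydrogels without PD03, where 0.0169% of genes were called, no member was. All libraries there came from pool 3. Klf2 measured 177.2, 193.6 and 190.6 CPM in serum and 194.1, 183.5 and 181.3 CPM in serum + LIF, so that the groups overlapped (log2 fold change -0.01, 95% interval -0.13 to 0.12, edgeR adjusted p = 0.993). Klf4 measured 159.4, 156.2 and 155.7 CPM in serum and 178.5, 181.6 and 181.8 CPM in serum + LIF. These groups did not overlap, but the log2 fold change of 0.20 (95% interval 0.11 to 0.30) had an edgeR adjusted p of 0.143, while DESeq2 called it (adjusted p = 0.00604). With PD03, LIF gave no member call on soft (0.107% of genes called) or stiff hydrogels (0.514%), and the log2 fold changes of Klf4 were 0.05 and 0.02.

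Of the LIF and STAT3 targets, 5 of 8 were higher with LIF on stiff hydrogels without PD03, Socs3, the feedback inhibitor of the pathway, by 0.76 and Tfcp2l1, a naive factor counted also among the naive partners, by 0.52. On soft hydrogels 1 of 8 was called. Of the naive partners 6 of 8 were higher on stiff hydrogels, with Esrrb at 0.33 and Nanog at 0.34, and 0 of 8 on soft ones. SRF and YAP targets were lower in 4 of 7 on stiff hydrogels, with Acta2 at -0.84 and Vcl, the adhesion protein vinculin, at -0.25. The further Klf genes gave 1 call there, Klf8, at 0.28 (edgeR adjusted p = 0.0305), lost without any of 5 of the 6 libraries (all but library 3 in serum + LIF), at 0.24 to 0.28 and adjusted p of 0.0709 to 0.205. The difference between substrates in the response to LIF, tested as an interaction (soft minus stiff), called 0.0847% of genes and no member. It was -0.30 for Klf2 (SE 0.087, edgeR adjusted p = 0.172) and -0.26 for Klf4 (SE 0.066, 0.138), and DESeq2 called both (0.0454 and 0.0165).

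The response of the members to LIF differed with PD03 on stiff hydrogels. The LIF by PD03 interaction there called 1.09% of genes and 3 members: Klf4 (-0.44, SE 0.065, edgeR adjusted p = 2.56e-05), Klf2 (-0.35, SE 0.085, 0.0232) and Klf6 (0.30, SE 0.080, 0.0473). For Klf2 and Klf4 the effect of LIF was thus smaller with PD03 than without, and for Klf6 it was higher, 0.15 with PD03 beside -0.15 without, neither called. Klf4 kept its call whichever library was left out. Klf2 lost it without any of 8 of the 12 libraries involved (all but library 3 in serum + LIF, 2 and 3 in serum and 3 in serum + PD03), at -0.35 to -0.28 and adjusted p of 0.0502 to 0.161. Klf6 lost it without any of 9 (all but library 3 in serum + LIF, 3 in serum and 1 in serum + PD03), at 0.26 to 0.32 and adjusted p of 0.0656 to 0.189. With the pool as a term, the interaction was called in 45 of 45 assignments for Klf4, in 16 for Klf2 and in 15 for Klf6. Among the pathway lists, 6 of 8 naive partners were lower and 5 of 7 SRF and YAP targets higher in this interaction. On soft hydrogels the same interaction called 0.0226% of genes and no member.

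Substrate stiffness moved Klf2, Klf4, Klf5 and Klf6 by less than PD03 did. On average over the 5 settings in which soft and stiff hydrogels were both used, Klf2 and Klf4 were higher on soft hydrogels by 0.23 (SE 0.026, edgeR adjusted p = 1.73e-09) and 0.26 (SE 0.020, 3.82e-15) on the log2 scale, and Klf6 was lower by a similar size (-0.28, SE 0.025, 1.11e-12). Klf5 was higher by 0.11 (0.00156), Klf3 by 0.10 (5.32e-05) and Klf10 by 0.10 (0.00692), and Klf9 was not called (0.03, 95% interval -0.01 to 0.08, 0.306). These are 6 of 7 members, beside 17.1% of all genes tested, for which the median absolute difference was 0.08. The median of the naive factors was 0.23 and that of the other 4 members 0.07, with Klf6 on the opposite side.

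After 24 h in serum + LIF, where substrates shared a pool and 3.55% of genes were called, Klf2 measured 194.7, 189.9 and 175.2 CPM on soft hydrogels and 139.6, 148.4 and 157.9 CPM on stiff ones. All soft libraries were above all stiff ones (log2 fold change 0.33, SE 0.061, edgeR adjusted p = 0.000309). Klf4 measured 225.5, 208 and 202 CPM on soft and 164.5, 161.8 and 167.8 CPM on stiff hydrogels, also without overlap (0.36, SE 0.046, 1.48e-07). Klf6 measured 88.3, 86.7 and 95 CPM on soft and 111.5, 116 and 109.9 CPM on stiff hydrogels, with all soft libraries below the stiff ones (-0.32, SE 0.057, 0.000143). Klf5, with 845.9, 865.2 and 851.7 CPM on soft and 875.3, 891.4 and 772.4 CPM on stiff hydrogels, overlapped (0.01, 95% interval -0.12 to 0.14). Klf3, Klf9 and Klf10 were not called.

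After 48 h in serum alone, 4.85% of genes and 4 members were called. Klf2 measured 177.2, 193.6 and 190.6 CPM on soft and 130.2, 145.3 and 144.9 CPM on stiff hydrogels (0.42, SE 0.061, edgeR adjusted p = 3.1e-06). Klf4 measured 159.4, 156.2 and 155.7 CPM on soft and 113.4, 121.4 and 123.8 CPM on stiff hydrogels (0.40, SE 0.047, 2.82e-08). Neither overlapped, and these were the largest differences between soft and stiff hydrogels of the 5 settings for both genes. Klf6 was lower, at 67.8, 68 and 63.3 CPM on soft and 80.9, 82.2 and 78.5 CPM on stiff hydrogels (-0.28, 0.0011), and Klf5 overlapped, with 628.9 to 734.3 CPM on soft and 641.3 to 757.5 CPM on stiff hydrogels (-0.03). Klf3 was called higher (0.14, 0.0435), a call lost without any of 5 of the 6 libraries (all but soft library 2), at 0.12 to 0.16 and adjusted p of 0.0527 to 0.228.

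With LIF at 48 h, where 0.78% of genes were called, no member was called. Klf4 measured 178.5, 181.6 and 181.8 CPM on soft and 166.1, 170.6 and 155.8 CPM on stiff hydrogels, without overlap (0.14, 95% interval 0.04 to 0.23, edgeR adjusted p = 0.179). Klf2 (0.12, 0.493) did not overlap either, and Klf5 (0.15, 0.345) and Klf6 (-0.13, 0.43) did. The change of the stiffness difference from 24 h to 48 h, tested as an interaction, called 0.254% of genes and no member. It was -0.21 for Klf2 (edgeR adjusted p = 0.363), -0.22 for Klf4 (0.148) and 0.19 for Klf6 (0.379).

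In serum + PD03, with 5.55% of genes called, Klf4 measured 271 to 296.4 CPM (median 286) in the 6 soft libraries and 243.9, 260.1 and 244.3 CPM in the stiff ones (0.19, SE 0.039, edgeR adjusted p = 0.000671). Klf5 measured 486.9 to 552.4 CPM (median 518.7) on soft and 444.9, 447.5 and 428.7 CPM on stiff hydrogels (0.23, 0.00437). Klf6 measured 106.3 to 121.6 CPM (median 116.3) on soft and 156.1, 143.2 and 134.4 CPM on stiff hydrogels (-0.32, 3.39e-06). None of these 3 genes overlapped between substrates. Klf2 did, with 347.8 to 413.4 CPM on soft and 366.4 to 377.4 CPM on stiff hydrogels (0.07, 95% interval -0.04 to 0.18, 0.524). Because 2 of the soft libraries shared pool 2 with the stiff ones, the difference was also taken within that pool for all 15 choices of 2 libraries. It ran from 0.15 to 0.24 for Klf4, from 0.17 to 0.30 for Klf5, from -0.39 to -0.25 for Klf6 and from -0.01 to 0.13 for Klf2.

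In serum + LIF + PD03, with 7.61% of genes called, 4 members were higher and 1 was lower on soft hydrogels. Klf4 measured 296.7, 300.1 and 291 CPM on soft and 255, 246.3 and 255.7 CPM on stiff hydrogels (0.23, SE 0.045, edgeR adjusted p = 0.000274). Klf6 measured 126.7, 126.6 and 127 CPM on soft and 163.2, 159 and 159.4 CPM on stiff hydrogels (-0.34, SE 0.055, 9.97e-06). Both were free of overlap and kept their calls whichever library was left out. Klf2 (0.21, 0.0165) was not called without stiff library 1 (0.19, 0.105) or 2 (0.22, 0.0529) or soft library 2 (0.12, 0.328). Klf5 (0.21, 0.0257) was not called without stiff library 2 (0.20, 0.102) or 3 (0.19, 0.137) or soft library 3 (0.14, 0.289). Klf3 (0.15, 0.0185) was not called without stiff library 2 (0.13, 0.127) or 3 (0.14, 0.0967) or soft library 2 (0.16, 0.0549) or 3 (0.13, 0.123).

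**Figure D4:**
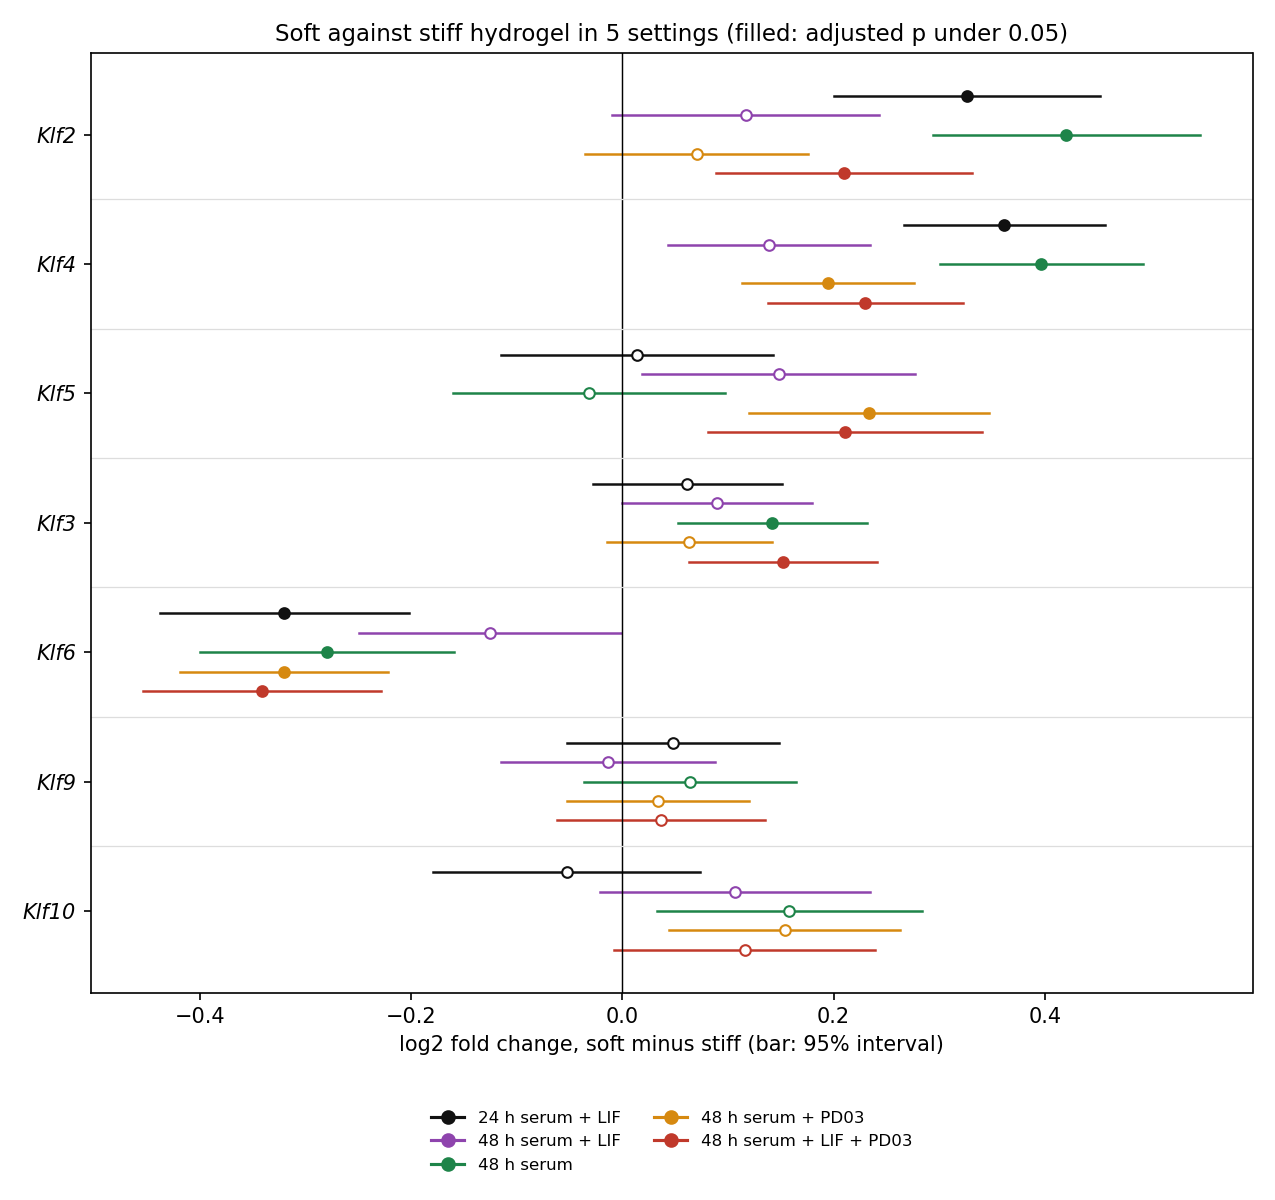
Log2 fold change, soft minus stiff (x axis), of each gene (y axis) in the 5 settings of medium and time, with bars for 95% intervals and filled points for edgeR adjusted p under 0.05. Klf4 lay between 0.14 and 0.40 and Klf6 between -0.34 and -0.13 in the 5 settings, whereas Klf5 lay between -0.03 and 0.23 with filled points where PD03 was present.

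Pool and substrate coincided in nearly all libraries at 48 h, so the fit was repeated with the pool as a term over the 45 assignments of columns to samples that the labels allow. At 24 h Klf2, Klf4 and Klf6 were called in 45 of 45. In serum Klf4 was called in 45 and Klf2 in 44, but Klf6 in 15 and Klf3 in 0. In serum + PD03 Klf6 was called in 45, Klf4 in 33 and Klf5 in 18, and in serum + LIF + PD03 Klf6 in 38, Klf4 in 25, Klf2 in 6 and Klf5 and Klf3 in 0. For the mean of the 5 settings, Klf4 and Klf6 were called in 45, Klf2 in 33, Klf3 in 3, Klf5 in 2 and Klf10 in 0. The calls of Klf3, Klf5 and Klf10 between substrates were thus lost in most assignments, as were those of Klf6 in serum and of Klf2 in serum + LIF + PD03. Only a single assignment is the true one, and it is not known which, so these counts do not measure support.

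The dependence of the stiffness difference on PD03 was tested as an interaction. Without LIF, 0.797% of genes were called and Klf2 among them (-0.35, SE 0.080, edgeR adjusted p = 0.0173), since it differed between substrates by 0.42 in serum and by 0.07 in serum + PD03. Its call was lost without stiff library 1 (-0.30, 0.0906), soft library 2 (-0.33, 0.0842) or soft library 3 (-0.34, 0.058) of those in serum, and with the pool as a term it was called in 38 of 45. Klf4 (-0.20, 0.107) and Klf5 (0.27, 0.133) were not called. With LIF, 1.07% of genes but no member were called, and Klf6 came to -0.22 (0.281). Of the naive partners, 4 of 8 were lower in this interaction without LIF and 0 of 8 with LIF.

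Klf4 and Klf6 took opposite directions between substrates and the same direction with PD03. Per length, Klf4 was 3.36 to 3.92 times as abundant as Klf6 in the 5 soft group means and 2.11 to 3.27 times in the 5 stiff ones, beside 2.36 on plastic. In each setting the soft mean was above the stiff mean, at 3.40 and 2.11 after 24 h, 3.41 and 2.14 in serum, 3.92 and 3.27 in serum + LIF, 3.56 and 2.49 in serum + PD03 and 3.36 and 2.26 in serum + LIF + PD03. This pair was chosen after its values were seen, and the ratio is given as a description.

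**Figure D5:**
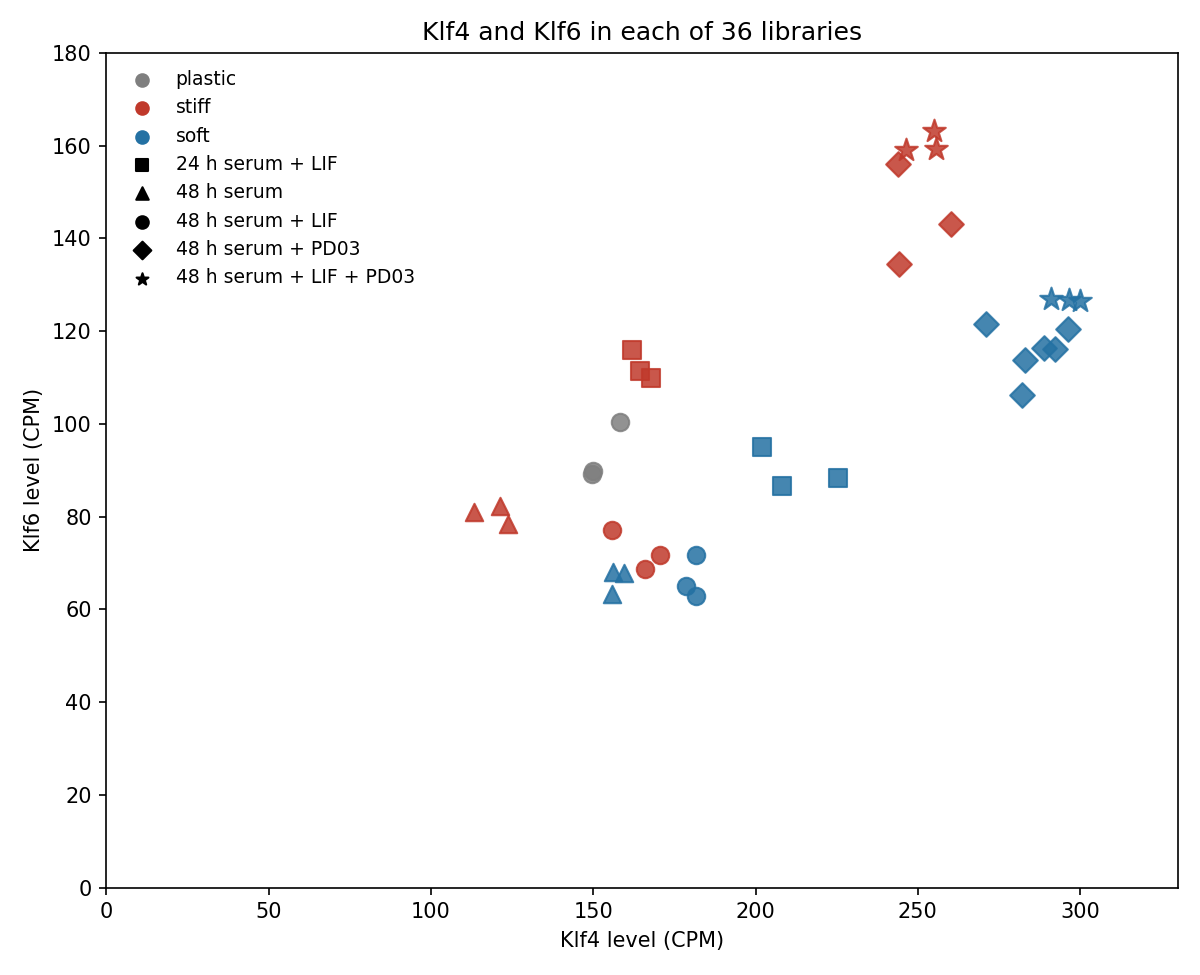
Level of Klf4 (x axis) and of Klf6 (y axis), both in CPM, in each of the 36 libraries, coloured by substrate, with symbols for medium and time. In each setting the soft libraries sat to the right of the stiff ones and, except in 48 h serum + LIF, below them, for example at 202 to 225.5 CPM Klf4 and 86.7 to 95 CPM Klf6 against 161.8 to 167.8 and 109.9 to 116 after 24 h.

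Markers of other cell types differed between the same groups as Klf6, some in its direction and some not. The summed level of 7 fibroblast or feeder markers was 26.6 to 38.9 CPM on soft and 53.4 to 60.8 on stiff hydrogels after 24 h, 25 to 31.8 and 51.4 to 56.9 in serum, 28.1 to 32.8 and 35.8 to 42.9 in serum + LIF, 34.9 to 47 and 72.1 to 81.7 in serum + PD03, and 33.7 to 47.8 and 90.8 to 96.5 in serum + LIF + PD03. On plastic it was 73 to 84.5 CPM. Of the 7 markers, 5 were detected in all 36 libraries: Col1a1, a collagen gene that led the list with 9.75 to 79.2 CPM, Thy1 (1.78 to 13.7 CPM), Pdgfrb (2.57 to 8.06 CPM), Col1a2 (1.12 to 7.81 CPM) and Col3a1 (0.146 to 2.21 CPM). The matrix genes Dcn and Lum reached at most 1.73 and 0.19 CPM and were at 0 in 3 and 24 libraries. On stiff hydrogels, 6 of these markers had a group mean above 1 CPM in serum and 4 in serum + PD03, although the sum was higher with PD03. On soft hydrogels it was 4 in both. The direction of single markers between groups was not compared. The sum of 3 trophoblast markers, led by Hand1, was 13.5 to 14.2 CPM on soft and 25.3 to 26.3 on stiff hydrogels after 24 h, 9.17 to 10.1 and 16.3 to 17.1 in serum, 9.42 to 13.5 and 10.9 to 18.5 (overlapping) in serum + LIF, 31.4 to 40.2 and 58 to 64 in serum + PD03, and 41.6 to 44.5 and 69.7 to 77.7 in serum + LIF + PD03, with Elf5, a defining trophoblast factor, at a mean of 0.284 CPM. The sums for neural and mesoderm markers were lower with PD03, where Klf6 was higher: 11.8 to 16.7 CPM with it and 32.9 to 57.1 CPM without it for the neural markers, and 3.69 to 5.29 and 10.4 to 19.9 CPM for mesoderm. Neural sums were also higher on soft than on stiff hydrogels after 24 h (51.4 to 57.1 and 41.5 to 50.2 CPM). The same held in serum (42.9 to 45.5 and 32.9 to 38.1), serum + LIF (48.3 to 56.8 and 40 to 42.5) and serum + LIF + PD03 (13.9 to 15.6 and 11.8 to 12.8). In serum + PD03 they overlapped (12.7 to 16.7 and 11.8 to 13.6). The markers of primitive endoderm summed to 12.7 to 27.3 CPM over all libraries. The part of these markers in the result for Klf6 was not tested.

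Among the pathway lists, naive partners went with Klf2 and Klf4. For the mean of the 5 settings, 8 of 8 were higher on soft hydrogels, with Esrrb at 0.29 and Nanog at 0.22. Of the LIF and STAT3 targets 4 of 8 were higher, with Socs3 at 0.23 and Tfcp2l1 at 0.20. SRF and YAP targets were lower in 6 of 7, with Acta2 at -1.25 and Vcl at -0.21. Of the ERK targets 1 was higher and 2 were lower of 10, with Dusp4, a phosphatase of the pathway, at -0.43. With the pool as a term, Esrrb, Tfcp2l1, Acta2 and Vcl were called in 45 of 45 assignments, Nanog in 39, Socs3 in 27 and Dusp4 in 18 (-0.72 to -0.12). A further 3 family members were called, Klf8 (0.17, edgeR adjusted p = 1.31e-05), Klf7 (-0.14, 0.00213) and Sp2 (0.07, 0.0456). The call of Sp2 was lost in 21 of 33 cases of a library left out (0.058 to 0.07, adjusted p of 0.0516 to 0.114), and with the pool as a term Klf8 was called in 14 of 45 assignments, Klf7 in 7 and Sp2 in 0.

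Plastic was used in serum + LIF at 48 h only. Soft hydrogels differed from it in 11.8% of genes and in 6 members, stiff hydrogels in 5.54% and in 2 members. Klf2 measured 126.7, 115.8 and 130.8 CPM on plastic, 170.6, 180.2 and 164.9 CPM on stiff and 194.1, 183.5 and 181.3 CPM on soft hydrogels. All hydrogel libraries were above the plastic ones, by 0.58 on soft (SE 0.062, edgeR adjusted p = 4.03e-10) and 0.47 on stiff hydrogels (SE 0.062, 2.88e-07). Klf6 measured 100.4, 89.1 and 89.8 CPM on plastic, above all hydrogel libraries in this medium at 48 h. It was lower by 0.49 on soft (1.43e-08) and by 0.36 on stiff hydrogels (1.86e-05) on the log2 scale. Klf4, with 158.3, 149.5 and 150 CPM on plastic, was called on soft (0.24, 0.000147) and not on stiff hydrogels (0.10, 0.231). On soft hydrogels Klf5 (0.28, 0.00138), Klf3 (0.18, 0.00316) and Klf10 (0.28, 0.000955) were also higher than on plastic, and Klf9 was not called (0.03). Both comparisons share the plastic libraries, which came from pool 1, while most hydrogel libraries of this medium at 48 h did not. With the pool as a term Klf2 was called in 45 of 45 assignments on stiff and 40 on soft hydrogels, Klf6 in 30 and 29, Klf4 on soft hydrogels in 6, and Klf5, Klf3 and Klf10 in 0.

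Between 24 h and 48 h in serum + LIF, Klf6 was the member that changed most. It was lower at 48 h by 0.63 on the log2 scale on stiff hydrogels (from 109.9 to 116 CPM down to 68.6 to 77.2 CPM, edgeR adjusted p = 2.79e-12) and by 0.44 on soft ones (from 86.7 to 95 CPM down to 62.9 to 71.8 CPM, 1.7e-07), without overlap in either. Klf4 was lower at 48 h on soft hydrogels (-0.23, 0.000163) and not on stiff ones (-0.01). Klf5 was lower on stiff hydrogels (-0.25, 0.00186) and Klf2 was higher (0.21, 0.00832), a call lost without library 1 at 24 h (0.17, 0.0811) or library 2 at 48 h (0.17, 0.0754). Time moved 24.4% of genes on soft and 25.6% on stiff hydrogels. Time and pool coincided on soft hydrogels, and with the pool as a term Klf6 was called in 45 of 45 on stiff and 27 on soft hydrogels, Klf5 on stiff hydrogels in 30, Klf2 in 15 and Klf4 on soft hydrogels in 8.

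Over the 11 group means, the genes whose log2 level was most like that of a member were found among 10459 genes with a mean of at least 5 CPM. The points share libraries and the split by PD03, so the correlations are descriptions. For Klf2 they were Dennd2c, Glb1 and Notch4 (Pearson's r = 0.996 each), and 707 genes had r above 0.95. For Klf4 they were H2-M5 (0.985), Klf9 (0.984) and Kat6b (0.981), and for Klf5 Ewsr1 (0.993), Rbx1 (0.987) and Tbp (0.984). For Klf6 they were Krt8, a keratin (0.995), Anxa2 (0.995) and Krt18, the keratin partner of Krt8 (0.992). For Klf9 they were H2-M5 (0.993), Gm26631 (0.992) and Eef2kmt (0.989), for Klf3 Lrrc56 (0.911), Cd37 (0.902) and Itpk1 (0.901), and for Klf10 Cuta (0.926), Gm6969 (0.911) and Cox5b (0.879). Genes with r above 0.95 numbered 110 for Klf4, 117 for Klf5, 154 for Klf6, 441 for Klf9 and 0 for Klf3 and Klf10. The named genes of Klf2, Klf4, Klf5, Klf6 and Klf9 are thus a few of many.

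With the means of the groups with and without PD03 subtracted, which leaves substrate, LIF and time together with the pool, the nearest genes changed. They were Tcl1 for Klf2 (0.971), Kit for Klf4 (0.985), Cenpx for Klf5 (0.98), Epha4 for Klf3 (0.959), Tinagl1 for Klf6 (0.995), Gm6284 for Klf9 (0.964) and Pbx2 for Klf10 (0.955). After the subtraction, 89 genes had r above 0.95 for Klf6, and 1 to 7 for each of the others. Among the members, Klf2 and Klf4 had r = 0.929 over the 11 means and 0.653 after the subtraction. Klf2 and Klf5 went from -0.81 to 0.478, Klf2 and Klf6 from 0.702 to -0.593, and Klf4 and Klf9 from 0.984 to 0.947. Klf4 and Klf6 went from 0.704 to -0.089.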

How the data were processed

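RNA was extracted with a genomic DNA digestion step and libraries were made with a NuGen kit, per the labels. The authors aligned the reads to GRCm38 (mm10) with STAR 2.5.2a and counted them per gene of Ensembl release 87 with htseq-count, and the strand setting and the handling of multimapping reads are not given in the sources used here. The deposited values were raw counts per gene, without normalisation. Total counts ranged from 10405696 to 26635239 per library and the members held at least 663 counts in each.

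Columns of the count table carried group names without replicate numbers, so a library number is only the order of its column. The filter filterByExpr of edgeR 4.0.16 (R 4.3.3) kept 17702 of 49671 genes with 99.92% of counts, and these were scaled by TMM and fitted with a quasi-likelihood model of 11 group coefficients over all 36 libraries. Each comparison was a contrast with Benjamini-Hochberg adjustment over the tested genes at 0.05, the standard error was the absolute log2 fold change divided by the square root of F, and intervals are at 95%. Levels in CPM and CPM per kb of exon union (GENCODE annotation of GRCm38) were computed from the deposited counts. Replicate pairs were checked for duplicates (45 pairs, chi-square per gene 2.27 to 14.6). The fit was tested on simulated counts. Alternatives were DESeq2 size factors, no filter, the DESeq2 1.42.0 Wald test, fits of the compared groups alone, each library left out and the pool as a term. The differences within pool 2 were added after seeing the data.

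The members and the gene lists were chosen with earlier results of these data known. All members are named. Of the other Klf and Sp genes, the 3 with the largest change past the threshold are named per effect, and of each pathway list at most 2 genes. Marker lists hold 5 genes for embryonic stem cells, 7 for fibroblasts, 5 for primitive endoderm, 3 for mesoderm, 3 for trophoblast and 2 for neural cells. Likeness was Pearson's r over log2 CPM (prior count 2). Promoters of 300 bases, 250 of them before the start site, were searched on both strands.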

Additional observations from a re-analysis of the deposited data

Results flagged for a closer look

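In the 6 libraries of soft hydrogels in serum + PD03, the lowest library stood apart from the others for Klf2, with a gap of 0.655 of the whole range of the group, and for Klf3, with 0.649, both above Dixon's 95% critical value for 6 samples. Chance gives such a value in about 1 of 20 groups. The Klf2 library was at 347.8 CPM and the others at 390.8 to 413.4 CPM, and the Klf3 library was at 197.2 CPM and the others at 205.4 to 209.8 CPM.

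In 4 cases an effect on a member differed between groups by a test of the difference itself. The difference of Klf2 between soft and stiff hydrogels changed with PD03 in the absence of LIF (interaction -0.35, edgeR adjusted p = 0.0173). On stiff hydrogels, the effect of LIF changed with PD03 for Klf4 (-0.44, 2.56e-05), Klf2 (-0.35, 0.0232) and Klf6 (0.30, 0.0473). The first of these on stiff hydrogels kept its call in every alternative tried, and the other interactions lost it in some.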

How the results depend on the processing

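Calls were counted over the 7 members in each kind of comparison. They numbered 15 of 35 between soft and stiff hydrogels, 8 of 14 against plastic, 21 of 28 for PD03, 2 of 28 for LIF, 5 of 14 for time and 4 of 42 for interactions. Over all genes tested, 0.78% to 7.61% were called per comparison between soft and stiff hydrogels, and 5.54% and 11.8% against plastic. The share was 54.4% to 57.5% for PD03, 0.0169% to 1.41% for LIF, 24.4% and 25.6% for time and 0.0226% to 1.09% for interactions. By DESeq2's Wald test, 7 interactions of the members were called. With the pool as a term, the fewest calls over the 45 assignments were 6 and the most 11 between substrates, 1 and 5 against plastic, 20 and 21 for PD03, and the fewest were 1 for LIF, 2 for time and 1 for interactions. Leaving out 1 library at a time gave 11 to 16 calls between substrates, 19 to 21 for PD03, 1 to 2 for LIF, 4 to 5 for time, 8 against plastic and 1 to 4 for interactions. Of 945 recomputed values of the 61 called ones, including the mean of the 5 settings, 856 kept direction and call, 89 lost the call and 0 changed sign. DESeq2 also called Klf4 between substrates in 48 h serum + LIF (0.15, adjusted p = 0.0471), Klf4 for LIF on soft hydrogels (0.21, 0.00604) and the stiffness by PD03 interaction of Klf4 without LIF (-0.20, 0.0352).

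Signs changed only among values that were not called. The LIF effect on Klf2 on soft hydrogels without PD03 was 0.0018 with DESeq2 size factors and by DESeq2, 0.0081 without the filter and -0.046 to 0.021 with a library left out. Klf5 between substrates ranged from -0.045 to 0.054 at 24 h and from -0.11 to 0.033 in 48 h serum with a library left out, and reached 0.063 in the latter with the pool as a term. With the pool as a term, Klf2 between substrates fell to -0.028 in 48 h serum + LIF and -0.0071 in serum + PD03, Klf9 to -0.043 for the mean of the 5 settings, and Klf6 rose to 0.023 in 48 h serum + LIF. The cause was not tested. No paired analysis was possible because the columns of the count table carry no replicate numbers. With 3 libraries in most groups, a difference that was not called may still be present. The 95% intervals are not adjusted for the number of genes tested, and some of those given for uncalled values excluded 0. Pool and substrate cannot be told apart in 48 h serum, serum + LIF and serum + LIF + PD03 beyond these fits.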
